A study of Mus musculus with 12 samples.

Results

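The comparison described here set CD31+ lung cells of TET2 KO mice against those of WT mice, both fed chow, and its members are the 1298 genes that the authors' table for it lists, out of 18463 genes over which their test was adjusted. A gene entered the table if the authors' DESeq2 test gave it an unadjusted p-value under 0.05, and other genes are not tested here. FPKM of some unlisted genes in both groups came from the tables of the other comparisons. RNA was sequenced from 12 male mice on a C57Bl/6J background in 4 groups of 3, and the 6 chow libraries are the ones compared. WT chow mice were TET2fl/fl without Cre, and KO chow mice were TET2fl/fl with Cdh5-CreERT2, a recombinase driven by an endothelial cadherin promoter and active only after tamoxifen. Every mouse, controls included, received 40 mg/kg tamoxifen on 3 days, when aged between 6 and 8 weeks. Both groups then had 20 weeks of chow in which fat gave 13% of the energy, and lungs were taken at about 30 weeks of age. Cre-negative controls do not show what Cre activity alone does in endothelial cells. Each library came from 1 mouse.

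TET2 oxidizes methylated cytosine in DNA, a step toward removal of the methyl group, and it is also found in blood cells. Endothelial cells line the vessels and are the most abundant CD31-bearing cells of the lung, but platelets, monocytes and some lymphocytes carry CD31 as well. Beads coated with an antibody to CD31 therefore enrich endothelial cells without making them pure.

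The label of the cells was checked against marker genes as FPKM, which divides reads by gene length and can be compared between genes. The endothelial genes Cdh5 and Cldn5 had 56.1, 47.8 and 118 FPKM and 98.3, 80.2 and 263 FPKM in WT chow replicates 1, 2 and 3, so replicate 3 was the highest in both. Of 25 endothelial markers, 22 had a WT chow value, 0 of them lay below 1 FPKM, and their sum ran from 473 to 1206 FPKM. Genes of other cells were high in the same libraries. The club cell secretoglobin Scgb1a1 had 4165, 5481 and 5467 FPKM in WT chow and 2783, 2302 and 3017 FPKM in KO chow, and Chil3, a gene of alveolar macrophages, had 1489, 2802 and 2382 FPKM in WT chow and 2741, 2687 and 1527 FPKM in KO chow. Tet2 itself had 4.73, 5.18 and 5.15 FPKM in WT chow. Tet2, Pecam1, Cdh5, Kdr, Tie1 and Cldn5 were not listed for KO against WT on chow. The authors' test thus gave none of them, Tet2 included, an unadjusted p under 0.05. None had a KO chow value, so the size and direction of any difference in Tet2 RNA were not seen. For the knockout itself, the paper reports recombination by PCR in CD31+ lung cells of Cre-positive mice after tamoxifen. Of the endothelial markers, 5 had a KO chow value, the 4 listed ones and Emcn, an endothelial sialoglycoprotein gene that was not listed. Emcn had 2.14, 2.32 and 2.67 FPKM in WT chow and 2.67, 2.6 and 1.96 FPKM in KO chow, with overlapping groups. In bulk RNA, fewer cells of a type and less RNA per cell cannot be told apart.

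The chow libraries held 36.7 to 43.8 M reads on genes, and listed genes took 2.82% to 3.45% of them. Of the 1298 listed genes, 603 (46.5%) were higher and 695 lower in KO chow, and the median log2 fold change was -0.37. The higher genes were the more abundant, with a median of 551 normalized counts in the group with the higher mean, against 76.6 for the lower genes. The edgeR quasi-likelihood test on the 3 KO and 3 WT libraries, two-sided, called 994 of them (76.6%) at an unadjusted p under 0.05, 397 higher (30.6% of those listed) and 597 lower (46%). The fold change was more than 1 on the log2 scale, up or down, for 435 of the called genes (33.5%), 332 of them lower and 103 higher. The 3 libraries of each genotype did not overlap for 970 genes (74.7%). After Benjamini-Hochberg adjustment over the 18463 genes, 0 genes passed 0.05 by edgeR, whose lowest adjusted p was 0.79, while DESeq2 on the same counts gave 12. In what follows a gene that rose, fell or was called passed edgeR's unadjusted p, which the selection of the table makes likely, and 0 of them passed edgeR's adjusted one. Counts of called or not overlapping members of a list are to be read beside the 76.6% and 74.7% of all listed genes. An exact permutation test of 3 libraries against 3 cannot give a p below 0.1. Leaving out 1 library moved the count of 994 by more than 1.5 times for WT chow replicate 2 (483 genes), replicate 1 (659), KO chow replicate 1 (633) and replicate 3 (632).

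Among called protein-coding genes whose libraries did not overlap and whose higher group averaged 50 normalized counts or more, 429 in all, the 12 with the largest decrease included genes on the mesothelial, airway and matrix protease lists and others on none of the cell type lists. Muc16, a membrane mucin of mesothelium, had 109, 125 and 48.2 normalized counts in WT chow and 33.2, 22.1 and 15.3 in KO chow, a log2 fold change of -1.99 (SE 0.45). Fmod, which encodes the collagen-binding proteoglycan fibromodulin, fell by 1.90 on the log2 scale, and Gpc3, a cell-surface heparan sulfate proteoglycan, and Gas1, a growth arrest and Hedgehog co-receptor gene, fell by 1.63 and 1.61. Adamts4, a protease that cuts the matrix proteoglycan aggrecan, had 66.2, 75.2 and 74.9 normalized counts in WT chow and 28.5, 23.1 and 25.5 in KO chow. Its groups lay apart with little spread inside either (log2 fold change -1.48, SE 0.24), and the matrix metalloproteinase gene Mmp3 fell by 1.46. Muc2, a gel-forming mucin, Myo7b, a brush border myosin, the mitochondrial carrier Slc25a34 and the iodide transporter Slc5a5 fell by 1.48 to 1.61. In the 6 fits that each left out 1 library, 11 of these 12 lower genes, completed by Upk3b and Bpifb1 below, were called every time, and Slc5a5 was not called without WT chow replicate 2 or 3 or KO chow replicate 3.

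The 12 genes with the largest increase under the same conditions belonged to several cell types. Wfdc17, a small secreted protein of macrophages (chromosome 11, 83703991 to 83706268), had 137, 130 and 170 normalized counts in WT chow and 442, 276 and 342 in KO chow. The lowest KO library was well above the highest WT library (log2 fold change 1.28, SE 0.24). Stox1, a transcription factor gene, had 19.6, 28.3 and 36.9 normalized counts in WT chow and 135, 49.0 and 62.1 in KO chow, the first KO library being the highest. Ifit1bl1, a relative of the interferon-induced Ifit genes, rose by 1.07, and it, Stox1 and Wfdc17 were the 3 that were called in all 6 fits with 1 library left out. Xlr3b, an X-linked gene, had 31.7, 115 and 280 normalized counts in WT chow and 474, 411 and 365 in KO chow, a wide spread inside WT, and was called in 2 of the 6 fits (not without WT chow replicate 2 or any 1 of the KO chow libraries). Oas3 (1.03) was called in 1 of the 6, the fit without WT chow replicate 3. Tarm1 (1.54), a receptor of neutrophils and macrophages, the glycosyltransferase A4galt (1.48), the inositol phosphate kinase Ip6k3 (1.07), Prtn3 (1.04), which encodes the granule protease proteinase 3, the endothelial protocadherin Pcdh12 (1.04) and Mmrn1 (1.03), a multimerin of lymphatic endothelium and platelets, were called in 3 of the 6, losing the call without WT chow replicate 1 and 1 KO library each. Those KO libraries were replicate 2 for Tarm1 and Prtn3 and replicate 1 for A4galt, Ip6k3, Pcdh12 and Mmrn1, and all but Mmrn1, which needed WT chow replicate 3, also needed WT chow replicate 2. Art2b (1.15), an ADP-ribosyltransferase of T cells, lost its call only without KO chow replicate 3.

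**Figure D1:**
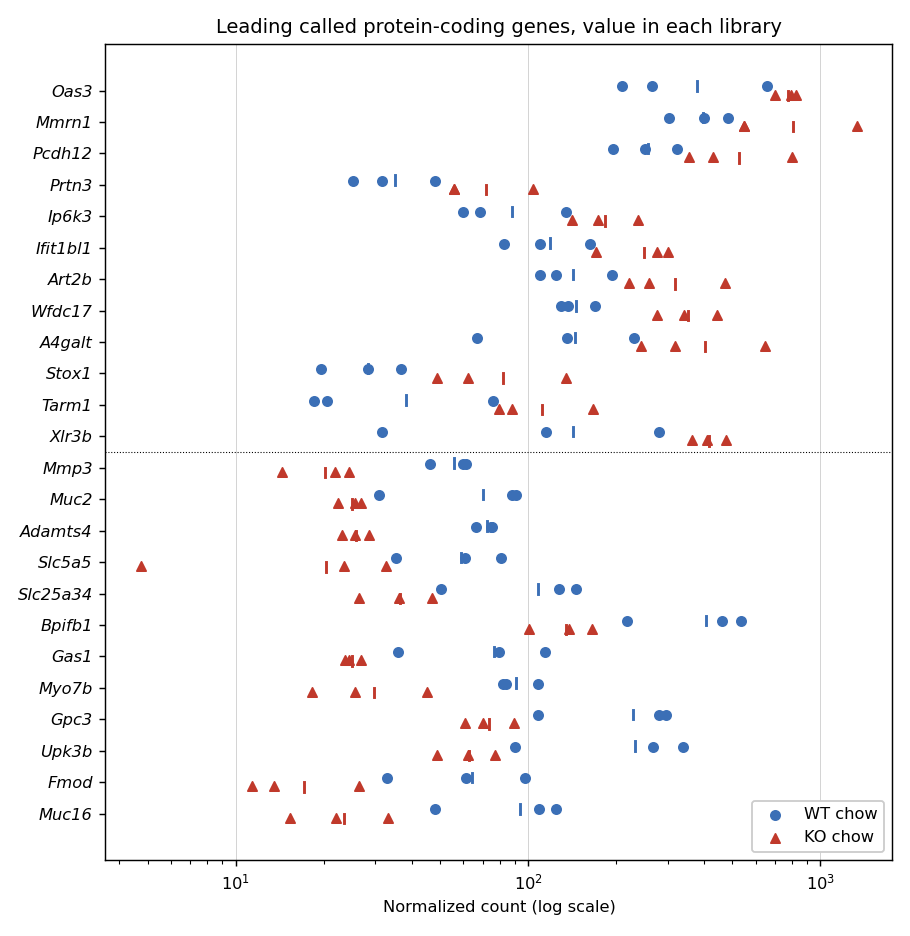
Normalized count (log axis) of the 12 higher and 12 lower protein-coding genes with the largest log2 fold change among called genes without overlap, one point per library (blue circles WT chow, red triangles KO chow, n = 3 each) and a short line at each group mean. The red and blue points do not overlap for any gene, which the choice of genes required. Adamts4 and Wfdc17 have narrow groups that lie apart, while Xlr3b in WT chow runs from 31.7 to 280.

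Airway secretory genes formed the list with the highest share of listed members among the cell type lists. Club and goblet cells line the conducting airways and secrete secretoglobins, mucins and antimicrobial proteins. Of 18 markers, 11 were listed (61.1%), and all 11 were lower in KO chow. Of all 22028 annotated protein-coding genes, expressed in these cells or not, 4.12% were listed. Of the 11 markers, 10 were called and 8 did not overlap, and the median log2 fold change was -1.23. Among all listed genes 76.6% were called and 74.7% did not overlap. Scgb3a2 (chromosome 18, 43764289 to 43767399), a secretoglobin of club cells, had 2509, 2155 and 2364 normalized counts in WT chow and 1079, 726 and 1070 in KO chow. Its groups were far apart and even inside each group, and its unadjusted edgeR p was the lowest of all listed genes (log2 fold change -1.29, SE 0.19). Scgb3a1, another secretoglobin, had 670, 354 and 1174 normalized counts in WT chow and 316, 251 and 288 in KO chow, so the WT libraries spread over a range of their own while KO stayed near the lowest of them. Muc5b, the main gel-forming airway mucin, had 350, 466 and 788 normalized counts in WT chow and 332, 142 and 146 in KO chow, where WT replicate 1 and KO replicate 1 nearly met (log2 fold change -1.37, SE 0.43). Bpifb1, a secreted lipid-binding host defence protein, had 461, 218 and 537 normalized counts in WT chow and 165, 101 and 138 in KO chow (log2 fold change -1.59, SE 0.36).

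The abundant Scgb1a1 itself, named here after its values were seen, went from 96497 ± 13385 normalized counts in WT chow to 51713 ± 7290 in KO chow (SD, n = 3 each). Its groups did not overlap, and the log2 fold change was -0.90 (SE 0.18). Bpifa1, Reg3g, Gabrp, Sult1d1 and Cyp2f2 also fell, and Tff2 was not called. Without KO chow replicate 2 edgeR called 6 of the 11. The summed FPKM of the 11 genes ran from 4375 to 5774 in WT chow and from 2390 to 3144 in KO chow. Most of each sum was Scgb1a1, so the lack of overlap repeats that of 1 gene. Selection by p in the same libraries makes it likely as well. In contrast to the secretory genes, 0 of 16 ciliated cell markers, 0 of 16 alveolar type 1 and 0 of 17 alveolar type 2 markers were listed.

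Mesothelial cells cover the lung surface and are marked by uroplakins and mesothelin. Of 17 markers, 5 were listed, Upk3b, Upk1b, Muc16, Msln and Lrrn4. All 5 fell, with a median log2 fold change of -1.89, and 3 did not overlap. The unlisted markers Krt19 and Cpe had FPKM in both groups, and these overlapped. Krt19 had 78.7, 132 and 93.2 FPKM in WT chow and 131, 104 and 60.4 FPKM in KO chow. Upk3b (chromosome 5, 136038496 to 136046487) had 268, 339 and 90.2 normalized counts in WT chow and 76.9, 62.5 and 48.9 in KO chow. WT chow replicate 3 lay close to the KO libraries rather than to its own group, here and for the 5 listed genes together. On a log2 scale relative to the WT mean, the median of the 5 genes was 0.32, 0.63 and -1.11 in WT chow replicates 1 to 3 and -1.36, -1.67 and -2.17 in KO chow replicates 1 to 3.

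Fibroblast genes showed the same order of WT libraries. Of 20 markers, 8 were listed, 7 of them lower, and edgeR called 6 of those 7 and Npnt, the gene of the basement membrane protein nephronectin, which was higher. Among the lower genes were collagens of connective tissue. Col3a1 (chromosome 1, 45311538 to 45349706) had 536, 659 and 345 normalized counts in WT chow and 240, 223 and 216 in KO chow (log2 fold change -1.18, SE 0.25). Col1a2 had 581, 636 and 370 in WT chow and 228, 243 and 277 in KO chow (log2 fold change -1.09, SE 0.24). WT replicate 3 was the lowest of its group for both, yet above every KO library. Dcn, which encodes decorin, Dpt, which encodes dermatopontin, and Col14a1 fell too, while Fbln1 was not called. The unlisted markers Pdgfra, Tcf21, Mfap4, Inmt and Col13a1 had FPKM in both groups, and these overlapped. Without WT chow replicate 2 or KO chow replicate 2 edgeR called 4 of the 8.

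Over the 72 collagen and basement membrane genes, 10 were listed. Of the 10, 9 fell, and Eln, the elastin gene, was higher at 0.94 and was not called. They included the fibrillar collagens, the laminin chain Lama2, the epithelial basement membrane collagens Col4a6, Col7a1 and Col17a1, and Col6a5. The median was -1.07, and without WT chow replicate 2 edgeR called 5. A single marker of 18 for smooth muscle and pericytes was listed, Lgr6. It fell by 1.95, at low means of 23 normalized counts in WT chow and 5.81 in KO chow. The unlisted marker Pdgfrb had 0.558, 0.676 and 0.758 FPKM in WT chow and 0.406, 0.617 and 0.974 FPKM in KO chow, with overlap. The complement gene C1s1, expressed by fibroblasts, fell by 1.00 with overlapping groups, and the mesenchymal cadherin Cdh11 fell by 1.24. Of 75 matrix proteases and inhibitors, 5 were listed and called, Adamts4, Mmp3 and Mmp17 (-0.66) lower and Mmp28 and Adam19 higher, with 3 of the 5 called without any 1 of the WT chow libraries or without KO chow replicate 1 or 2.

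Endothelial genes moved less evenly. Of 25 markers, 4 were listed, Sox18, Ramp2, Calcrl and Icam2, and all 4 were higher in KO chow, with a median log2 fold change of 1.01, but edgeR called 2 and all 4 overlapped between the groups. Sox18, a transcription factor of vascular and lymphatic endothelium (chromosome 2, 181669836 to 181671640), had 752, 743 and 1264 normalized counts in WT chow and 4685, 1172 and 1651 in KO chow. KO replicate 1 stood far above all others, and WT replicate 3 lay above KO replicate 2. The log2 fold change was 1.44 (SE 0.52), and without KO chow replicate 1 it was 0.62 and not called. Icam2, an adhesion molecule constitutively present on endothelium, had 3089, 2537 and 4642 normalized counts in WT chow and 7461, 4564 and 4744 in KO chow (log2 fold change 0.71, SE 0.28), in the same order of libraries. The call count of the 4 genes was 0 without WT chow replicate 1, WT chow replicate 2 or KO chow replicate 1, 4 without WT chow replicate 3 or KO chow replicate 3, and 3 without KO chow replicate 2. Their summed FPKM ran from 98.9 to 194 in WT chow and from 169 to 413 in KO chow.

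Most other listed vessel genes were higher in KO chow, and Nts and Agtr1a, both with low counts, were lower. Listed markers of general capillary (1 of 10), aerocyte (3 of 12) and arterial (2 of 13) endothelium were all higher, but only Ednrb was called. Hpgd (0.93), Rprml (0.85) and Chst1 (0.63) had overlapping groups. The unlisted arterial markers Mgp and Htra1 had lower FPKM in every KO chow library than in any WT chow library, and unlisted Cdh13 overlapped. Of 10 lymphatic endothelial markers 3 were listed and called, Mmrn1 and Thy1 higher and Nts, the neurotensin gene, lower by 1.94 on the log2 scale (means of 22.9 and 5.82 normalized counts in WT and KO chow, without overlap). Thy1 (0.62, with overlapping groups) is also a marker on the T cell list below, and the cells that its reads came from were not tested. The lymphatic list had 1 call without WT chow replicate 3 or KO chow replicate 1. Vegfc, a growth factor for lymphatic vessels (chromosome 8, 54077606 to 54187096), had 196, 222 and 271 normalized counts in WT chow and 634, 381 and 326 in KO chow. Its groups did not overlap and it was called in all 6 fits with a library left out (log2 fold change 0.96, SE 0.28). Ednrb, the endothelin B receptor of aerocytes, had 2323, 2113 and 2751 normalized counts in WT chow and 3329, 3256 and 3207 in KO chow, 3 almost equal KO values above all WT values (log2 fold change 0.45, SE 0.14), with the call lost only without WT chow replicate 2. Ptgs2, which encodes cyclooxygenase 2, rose by 0.57, and Hes1, a Notch target gene, by 0.68, both with overlapping groups and both losing the call without WT chow replicate 1 or 2 or KO chow replicate 3. Nos3, the endothelial nitric oxide synthase gene, stood at 194 normalized counts in WT chow and 348 in KO chow and was not called (log2 fold change 0.84, SE 0.41). The arterial connexins Gja4 and Gja5, at 1.08 and 0.73, were not called either. Agtr1a, an angiotensin receptor gene, fell by 1.33 from a mean of 14.1 normalized counts. No venous endothelial marker was listed.

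**Figure D2:**
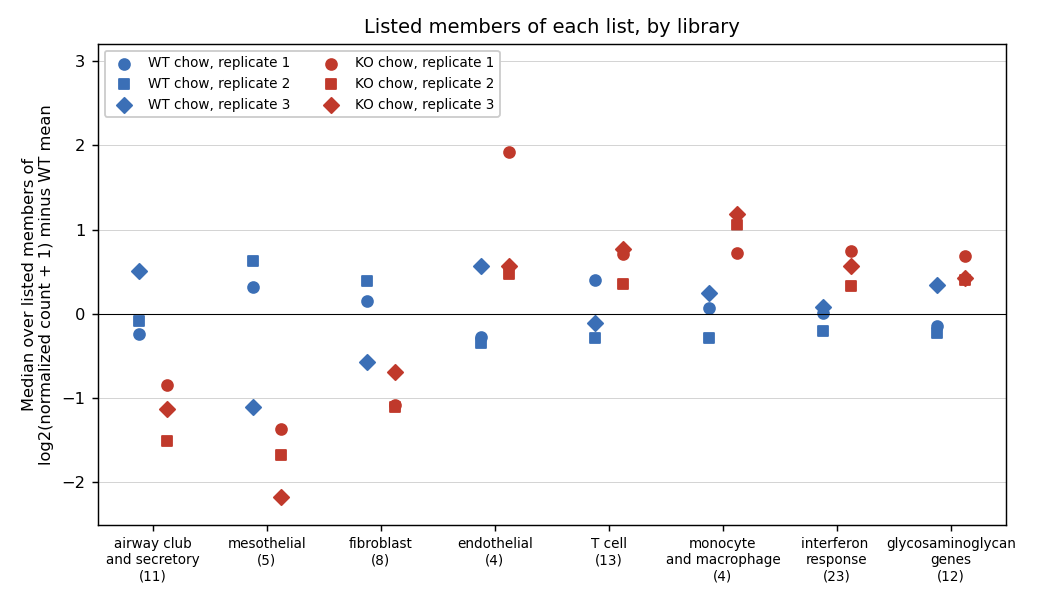
For 8 lists (number of listed members in brackets), the median over the listed members of log2(normalized count + 1) minus the WT chow mean, one point per library (blue WT chow, red KO chow; circle, square and diamond are replicates 1, 2 and 3). The genotypes overlap for endothelial and T cell members and are apart for the other lists, with a narrow gap for glycosaminoglycan members. WT replicate 3 lies near KO for mesothelial and fibroblast members, and KO replicate 1 is alone at 1.92 for endothelial members. Members were listed by p in these same libraries, which makes a separation likely.

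T cell genes were higher in KO chow. Of 25 markers, 13 were listed (52%), all 13 were higher, 10 were called and 6 did not overlap, with a median log2 fold change of 0.62. The share called was near the 76.6% of all listed genes, and the share not overlapping was below their 74.7%. Tcf7, a transcription factor of naive and memory T cells (chromosome 11, 52252371 to 52283014), had 7991, 4727 and 5446 normalized counts in WT chow and 10452, 8309 and 13243 in KO chow. WT replicate 1 was close below KO replicate 2, and KO replicate 3 was the highest (log2 fold change 0.82, SE 0.25). Cd8a, the alpha chain of the co-receptor of cytotoxic T cells, had 1503, 1040 and 1120 in WT chow and 2033, 1625 and 2592 in KO chow (log2 fold change 0.77, SE 0.22). Trac, the constant region of the T cell receptor alpha chain, had 813, 478 and 827 in WT chow and 1429, 1089 and 1148 in KO chow (log2 fold change 0.79, SE 0.24). Tcf7, Cd8a and Trac were called in all 6 fits with 1 library left out, while over the list edgeR called 3 without WT chow replicate 2 or KO chow replicate 3, 4 without WT chow replicate 3 and 6 without KO chow replicate 1. The summed FPKM of the 13 genes ran from 253 to 401 in WT chow and from 414 to 566 in KO chow. Selection by p in the same libraries makes such a gap likely. These markers define another cell type than the one labelled, and their part in the other results was not tested.

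Genes of T cell signalling went the same way in part. All 6 listed of 22 signalling genes were higher, and Lcp2 (0.42), an adaptor of the T cell receptor, Prkcq (0.60), a protein kinase C of T cells, and Nfatc2 were called. edgeR called 0 of the 6 without WT chow replicate 3 or KO chow replicate 3 and 1 without WT chow replicate 2. Among costimulatory and checkpoint receptors, 6 of 20 were listed. Lag3, an inhibitory receptor (chromosome 6, 124904361 to 124911705), was the exception to the direction of the T cell genes, with 456, 746 and 481 normalized counts in WT chow and 252, 359 and 345 in KO chow (log2 fold change -0.82, SE 0.25). It was called in all 6 fits with 1 library left out. Cd40lg (1.09), Cd226 (0.73) and Cd28 (0.54) rose with overlapping groups, and without WT chow replicate 2 or 3 or KO chow replicate 1 only 1 of the 6 was called, with 2 called without KO chow replicate 3. The interleukin receptor genes Il7r and Il9r rose by 0.53 and 0.57.

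Of 18 NK cell markers, 4 were listed and all 4 were higher. The unlisted markers Gzma and S1pr5 had FPKM in both groups, and these overlapped. Nkg7, a granule protein of cytotoxic lymphocytes, had 710, 444 and 554 normalized counts in WT chow and 839, 827 and 1198 in KO chow (log2 fold change 0.74, SE 0.23). Ccl5, a chemokine of the same cells, had 1426, 1019 and 1179 in WT chow and 1738, 1650 and 1882 in KO chow, with a gap between the groups that was smaller than the range inside WT (log2 fold change 0.54, SE 0.16). Prf1, the perforin gene, was called as well, and without KO chow replicate 3 edgeR called 1 of the 4.

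Monocyte and macrophage genes gave 4 listed members of 30, Ccr2, Cx3cr1, F13a1 and Wfdc17. For all 4 every KO library was above every WT library, which selection by p makes likely. The unlisted members Mrc1, Chil3, Marco, Siglecf and Eno3 had FPKM in both groups, and these overlapped. Mrc1, for one, had 70.6, 129 and 87.9 FPKM in WT chow and 97.8, 108 and 57.3 FPKM in KO chow. Ccr2, the receptor by which monocytes leave the bone marrow (chromosome 9, 124101950 to 124113557), had 1645, 1195 and 1837 normalized counts in WT chow and 2616, 3482 and 3343 in KO chow (log2 fold change 1.01, SE 0.20). F13a1, coagulation factor XIII A of monocytes and platelets, had 1542, 914 and 1906 in WT chow and 2204, 3539 and 2574 in KO chow (log2 fold change 0.93, SE 0.30). Cx3cr1, the fractalkine receptor of patrolling monocytes, had 1408, 1173 and 1571 in WT chow and 1789, 1856 and 3358 in KO chow, with KO replicate 3 far above the rest (log2 fold change 0.75, SE 0.27). Ccr2 and Wfdc17 were called in every fit with 1 library left out. F13a1 lost its call without KO chow replicate 2, and Cx3cr1 without WT chow replicate 1 or 2 or KO chow replicate 3.

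Dendritic cell genes went the other way. Ccl17 and Ccl22, chemokines of activated dendritic cells that share the receptor CCR4 on T cells, were the called members among 4 listed of 17. Ccl17 had 161, 253 and 161 normalized counts in WT chow and 82.6, 114 and 86.5 in KO chow (log2 fold change -1.02, SE 0.27). Ccl22 had 377, 595 and 484 in WT chow and 257, 312 and 187 in KO chow (log2 fold change -0.94, SE 0.26). Neither gene overlapped between the groups and both were called in all 6 fits with 1 library left out. Il12b and Cd86, at -1.03 and -0.57, were not called. Across 63 chemokines and their receptors, 9 were listed and 7 called, with 4 called without WT chow replicate 1. The 7 were split into Ccr2, Cx3cr1 and Ccl5 higher and Ccl17, Ccl22, Ccl8 and Ccl11 lower. Counts were low for Ccl8 and Ccl11, with WT chow means of 55.7 and 13.3 normalized counts, and Ccl8 overlapped between the groups.

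No marker of 18 for B and plasma cells and none of 15 for neutrophils was listed. Immunoglobulin joining segments, small gene pieces that become part of antibody transcripts, were nonetheless listed 8 times, all 8 lower and 7 called. Summed over the 8 segments, normalized counts were 3909, 2561 and 1950 in WT chow and 1728, 1715 and 1691 in KO chow, so the groups stood apart mainly through WT replicate 1. The 11 listed variable segments were split, 6 higher and 5 lower.

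Interferon response genes were listed in number and nearly all higher. Interferons bind receptors that activate transcription factors, and these bind the interferon-stimulated response element (ISRE) or the gamma-activated site (GAS) in the promoters of target genes. Of 77 genes of the response, 23 were listed (29.9%), 22 higher and 1 lower, with a median log2 fold change of 0.52, and 15 did not overlap between the groups. edgeR called 18, of which 17 rose. The share called was near the 76.6% of all listed genes, and the share not overlapping was below their 74.7%.

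To show what the promoters of these genes share, the 250 bases before the RefSeq gene start were searched on both strands for the ISRE, written as GAAA, any 2 bases and GAAA again, and the GAS, written as TTC, any 3 bases and GAA. A promoter sequence was found for 15 of the 23 listed genes (RefSeq, GRCm38.p6). The ISRE letters stood in 7 of the 15 (46.7%), against 28 of 390 (7.18%) for all listed genes higher in KO chow, 8 of 325 (2.46%) for those lower and 3.46% of 27025 genes with a promoter sequence. The GAS letters stood in 2 of the 15 (13.3%), against 8.13% of all genes. Of the 77 genes of the response, 57 had a sequence and 29 (50.9%) held the ISRE letters. The promoters of Oas3, Gbp5 and Ddx60, whose counts are given in the next paragraph, follow, with the ISRE letters in capitals, found on either strand.
Oas3, chr5:120777660-120777909, minus strand: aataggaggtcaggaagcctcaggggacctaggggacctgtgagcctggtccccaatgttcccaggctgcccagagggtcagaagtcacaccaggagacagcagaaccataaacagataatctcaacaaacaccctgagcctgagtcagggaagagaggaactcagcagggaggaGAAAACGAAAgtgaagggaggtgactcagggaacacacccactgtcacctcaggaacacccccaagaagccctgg
Gbp5, chr3:142496684-142496933, plus strand: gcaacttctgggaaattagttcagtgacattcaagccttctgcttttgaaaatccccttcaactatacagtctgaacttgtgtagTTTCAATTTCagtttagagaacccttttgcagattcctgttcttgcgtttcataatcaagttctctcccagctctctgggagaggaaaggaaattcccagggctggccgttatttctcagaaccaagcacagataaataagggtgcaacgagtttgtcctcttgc
Ddx60, chr8:61927837-61928086, plus strand: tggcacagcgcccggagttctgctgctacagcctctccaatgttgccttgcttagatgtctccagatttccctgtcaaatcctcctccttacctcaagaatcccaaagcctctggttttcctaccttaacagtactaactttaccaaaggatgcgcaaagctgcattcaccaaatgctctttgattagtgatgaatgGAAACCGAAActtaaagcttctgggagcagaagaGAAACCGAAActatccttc
The element of Oas3 began 75 bases before the gene start and that of Gbp5 165 bases before it, and Ddx60 held the letters at 53 and 19 bases. A match is a string of letters and not a shown binding site.

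Ddx60, an RNA helicase of antiviral sensing, had 609, 565 and 635 normalized counts in WT chow and 867, 968 and 818 in KO chow. Both groups were tight and apart (log2 fold change 0.55, SE 0.14). Gbp5, a GTPase of inflammasome assembly, had 316, 278 and 356 in WT chow and 714, 429 and 515 in KO chow (log2 fold change 0.80, SE 0.23). Mx1, an antiviral GTPase, had 161, 121 and 143 in WT chow and 264, 191 and 240 in KO chow (log2 fold change 0.71, SE 0.22). These 3 genes were called in all 6 fits with 1 library left out. Oas3, an enzyme that makes the activator of the antiviral RNase L, had 266, 210 and 659 in WT chow and 795, 702 and 825 in KO chow. WT replicate 3 was close to the KO libraries (log2 fold change 1.03, SE 0.41).

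Iigp1, an interferon-induced GTPase against intracellular pathogens, was the member that fell, with 2185, 2132 and 3555 normalized counts in WT chow and 1362, 1995 and 769 in KO chow (log2 fold change -0.93, SE 0.36). Its call was lost without WT chow replicate 3 or KO chow replicate 1 or 3. Reads of the Gbp, Ifi, Oas, Slfn and Trim30 families can be divided among near copies, which makes single values of these genes uncertain. Over the list, edgeR called 5 without WT chow replicate 2 or KO chow replicate 3 and 6 without KO chow replicate 1. None of the 15 interferon ligands, receptors and kinases and none of the 11 MHC class II genes was listed.

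Genes of neighbouring functions were mixed in direction. Zbp1, a sensor of Z-form nucleic acid, rose by 0.56, and Ddx58, the gene of RIG-I, by 0.40. Of 20 MHC class I genes 4 were listed, all 4 higher and not overlapping, and 2 were called, or 1 without any 1 of the 6 libraries. H2-T24, a nonclassical class I gene, had 862, 722 and 918 normalized counts in WT chow and 1400, 1004 and 1415 in KO chow (log2 fold change 0.61, SE 0.18). Erap1, the peptidase that trims class I peptides, rose by 0.30 and was called in 0 of the 6 fits with 1 library left out. Of 48 genes of the TNF superfamily 5 were listed, and Tnfsf8 (0.62) and its receptor Tnfrsf8 (0.96) rose, Tnfrsf25 was called higher at 0.57 and Tnfrsf12a, the receptor of TWEAK, was called lower at -0.46, while of the 4 called members of the family 0 were called without WT chow replicate 2 or KO chow replicate 1, 1 without WT chow replicate 3 and 2 without KO chow replicate 3.

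The 12 glycosaminoglycan genes named by the study were all listed and all higher, which the choice of the list on these samples made certain, so the count is not independent evidence of a direction. Glycosaminoglycans are the sugar chains of the glycocalyx on the endothelial surface. edgeR called 7 of the 12, and 7 did not overlap, with log2 fold changes from 0.32 to 0.82 and a median of 0.53. St3gal1, a sialyltransferase, had 6829, 5750 and 7831 normalized counts in WT chow and 11627, 8821 and 9037 in KO chow (log2 fold change 0.53, SE 0.18). Chst2, a sulfotransferase, had 223, 268 and 348 in WT chow and 404, 418 and 390 in KO chow (log2 fold change 0.53, SE 0.20). St3gal6 and Sgsh, the latter a lysosomal heparan sulfatase, rose by 0.52 and 0.51. WT replicate 3 was again the highest WT library for St3gal1, St3gal6 and Chst2. Hyal2, a hyaluronidase, had 830, 1007 and 1711 in WT chow and 3263, 1512 and 1478 in KO chow, overlapping and not called. Over the list edgeR called 2 without WT chow replicate 1, 0 without WT chow replicate 2 and 1 without KO chow replicate 1. Of 54 other glycocalyx genes, 3 were listed, Gpc3 lower, Idua (0.36) and Podxl higher.

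**Figure D3:**
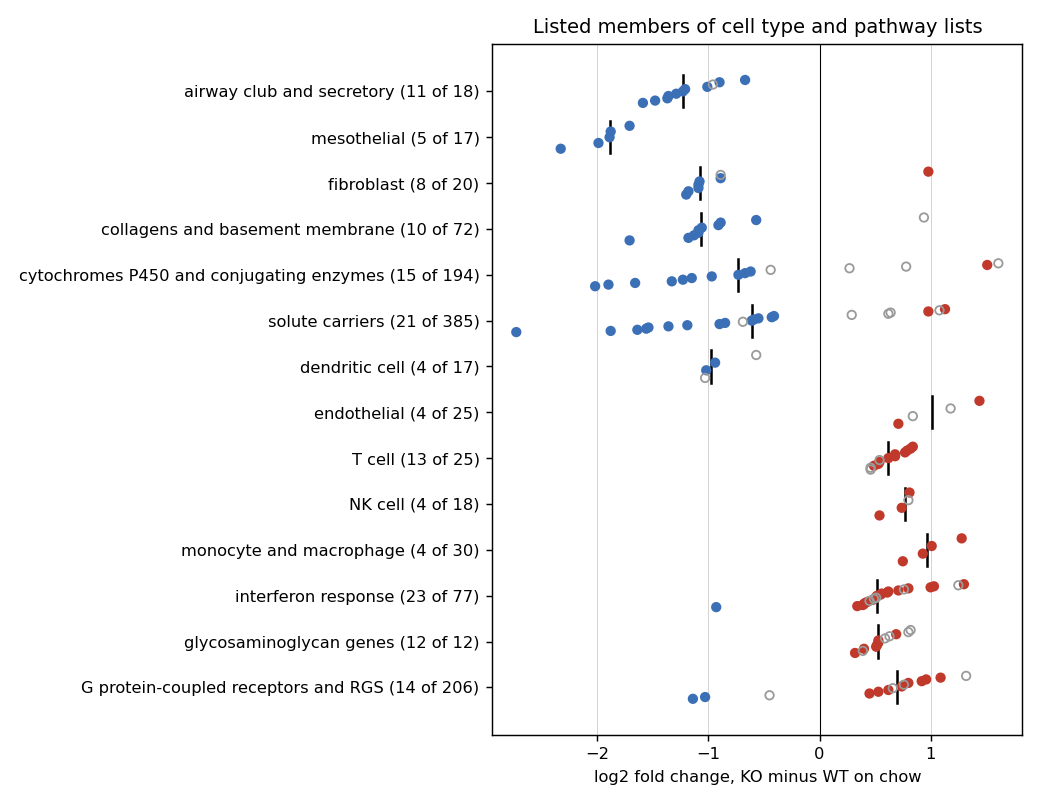
log2 fold change of every listed member of 14 lists (listed members of all members in brackets), KO minus WT on chow. Filled points were called by edgeR at an unadjusted p under 0.05 (blue lower, red higher), open points were not, and black lines are medians, from -1.89 for mesothelial to 1.01 for endothelial members.

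Of 194 cytochrome P450 and conjugating enzyme genes 15 were listed (7.73%), 11 lower and 4 higher, and 11 were called, 10 of them lower. Cyp2a5, a cytochrome P450 of airway and liver, had 114, 187 and 149 normalized counts in WT chow and 82.6, 59.6 and 36.7 in KO chow (log2 fold change -1.33, SE 0.35). Some members are also markers of the airway list (Cyp2f2, Sult1d1), and Fmod, counted by the start of its symbol, is not an enzyme. Without WT chow replicate 2 edgeR called 7, and without KO chow replicate 2 or 3 it called 6.

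Solute carriers had 21 of 385 listed (5.45%, near the 4.12% of all protein-coding genes), 15 lower and 6 higher, and edgeR called 14 of the lower and 2 of the higher, a share near the 76.6% called among all listed genes. Slc16a11, a monocarboxylate transporter (chromosome 11, 70212752 to 70216417), had 645, 729 and 900 normalized counts in WT chow and 262, 378 and 244 in KO chow. Its lowest WT library was above the highest KO library by more than the range inside KO (log2 fold change -1.36, SE 0.23). Slc24a1, a sodium, calcium and potassium exchanger, fell by 0.90. Without WT chow replicate 2 edgeR called 5 of the 21, without KO chow replicate 1 it called 7 and without KO chow replicate 2 it called 9. Of 273 ion channel genes 12 were listed (4.4%), 7 lower and 5 higher, and 7 were called, among them Gabrp (-1.01), a GABA receptor subunit of airway epithelium, and the potassium channel Kcnj2 (0.79). Kcnq1ot1 (-0.43), also counted, is an imprinted antisense RNA and not a channel. edgeR called 2 of the 12 without WT chow replicate 2, 3 without KO chow replicate 2 and 4 without KO chow replicate 3.

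G protein-coupled receptors and RGS genes had 14 of 206 listed (6.8%), 11 higher and 3 lower, and 8 of the higher called. F2rl1, the protease-activated receptor 2 gene, had 343, 220 and 247 normalized counts in WT chow and 559, 350 and 624 in KO chow (log2 fold change 0.92, SE 0.27). Adgrg5, an adhesion receptor of lymphocytes, rose by 0.74, Hrh2, a histamine receptor, by 0.96, and Adgrd1, an adhesion receptor, fell by 1.03. The count of 10 called was 6 without WT chow replicate 1 and 5 without WT chow replicate 2.

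Of 57 Wnt pathway genes 7 were listed and 6 called, Wnt11 (-0.74), Sfrp1 (-0.72), Sfrp2 and Lgr6 lower and Tcf7 and Rnf43 (0.69) higher. Wnt11, a ligand of the noncanonical branch, had 567, 485 and 368 normalized counts in WT chow and 281, 323 and 248 in KO chow, and Sfrp1, a secreted inhibitor, had 112, 120 and 127 in WT chow and 56.9, 78.9 and 82.5 in KO chow. Of 23 imprinted genes 3 were listed, all lower. Peg10, a retrotransposon-derived gene (chromosome 6, 4747306 to 4760517), had 300, 332 and 306 normalized counts in WT chow and 115, 183 and 117 in KO chow, 3 almost equal WT values above every KO value (log2 fold change -1.18, SE 0.23). Of 96 histone modifier genes 4 were listed. Kdm2b, a histone demethylase that binds unmethylated CpG (chromosome 5, 122870665 to 122989823), had 3771, 3177 and 3335 in WT chow and 1975, 2681 and 2514 in KO chow (log2 fold change -0.52, SE 0.16), while Hdac7 and Kat2b, a deacetylase and an acetyltransferase, rose by 0.64 and 0.56. Without WT chow replicate 2 edgeR called 1 of these 3. Among 25 genes of DNA methylation and its removal, Tet1, Tet2 and Tet3 included, 0 were listed.

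Smaller entries were as follows. Of 43 lipid genes 3 were listed and all were higher, with Vldlr, a lipoprotein receptor, at 62.5, 56.6 and 74.9 normalized counts in WT chow and 145, 146 and 102 in KO chow (log2 fold change 1.02, SE 0.25) and the lipase Lipe at 0.56. The oxidoreductase Nqo1 fell by 0.67, and Ccne2, a cyclin of the G1 to S transition, by 0.62. Of 362 ubiquitin and proteasome genes 15 were listed (4.14%), near the 4.12% of all protein-coding genes, with Trim30d (0.51) higher and Trim69 (-1.08) and Fbxo30 (-0.55) lower. Semaphorins and plexins were mixed, Sema4f (0.67) and Plxnb2 (0.71) higher and Sema4b (-0.36) lower. Among homeobox and forkhead genes Hoxa5 had 145, 125 and 235 normalized counts in WT chow and 936, 241 and 200 in KO chow, a log2 fold change of 1.44 (SE 0.61) that was 0.39 and not called without KO chow replicate 1. Of the Zfp zinc finger genes 15 of 397 were listed (3.78%), 8 higher and 7 lower. Lists with 0 listed members were those of hypoxia, immediate early, heat shock and circadian genes, of erythroid cells, and of 102 cytosolic and 78 mitochondrial ribosomal proteins.

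Gene type went with direction. Of the 907 listed protein-coding genes 511 were higher and 396 lower (43.7% lower), whereas of the 391 other genes 299 were lower (76.5%). TEC entries, transcripts still to be experimentally checked in the annotation, were listed 107 times, 96 lower and 11 higher, with a median log2 fold change of -0.98, and edgeR called 86 of the lower. Of 107 TEC entries 75 overlap a protein-coding gene on the same strand. Antisense genes were listed 82 times, 65 lower and 17 higher (median -0.93), and 76 overlap a protein-coding gene on the opposite strand. Sense intronic RNAs were lower in 18 of 20, processed pseudogenes in 36 of 46 and microRNA genes in 9 of 10.

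Summed over the 107 entries, normalized counts were 8143, 8174 and 7755 in WT chow and 5593, 4893 and 5511 in KO chow, and for the 20 sense intronic RNAs 1256, 1151 and 1234 and 757, 749 and 778. In both types the libraries of each genotype lay close together and apart from the other genotype. The sums hold only genes selected by p between these same libraries, which makes such a separation likely. Whether reads were counted by strand is not given in the sources used here, so for entries that overlap another gene the reads cannot be told apart from those of that gene and its unspliced RNA. Their medians of 44.7 normalized counts for TEC and 40.8 for antisense genes were below the 473 of protein-coding genes. Within protein-coding genes, higher and lower members were alike in GC content (51.6% and 51.5% at the median, 49.1% over all protein-coding genes) and had median gene spans of 24.6 and 21.2 kb, and they differed in abundance, with medians of 757 and 205 normalized counts.

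**Figure D4:**
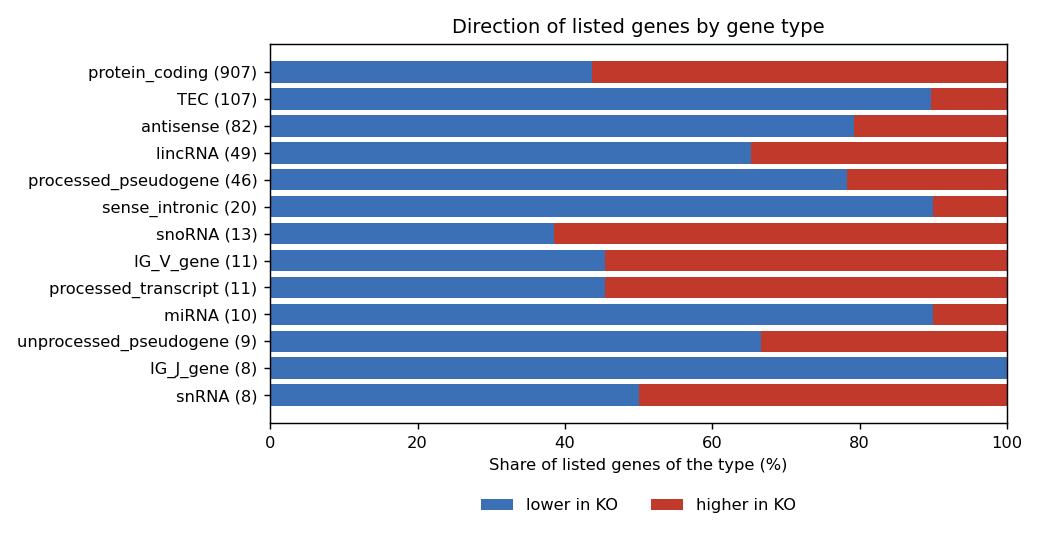
Share of listed genes of each annotated type that was lower (blue) or higher (red) in KO chow, for types with at least 8 listed genes (number in brackets). TEC, antisense, sense intronic and microRNA genes are mostly blue, and protein-coding genes are 43.7% blue.

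The same genotypes were also compared on a high-fat diet (HFD, 60% of energy from fat) in 6 other mice, 3 KO HFD and 3 WT HFD, none of which chose the chow genes. That table lists 3939 genes, of which edgeR called 3241 (82.3%), 1699 higher (43.1%) and 1542 lower (39.1%). Each table was normalized on its own, so levels are compared only within a diet. It shares 461 genes with the chow table, 35.5% of the chow genes and 11.7% of the HFD genes. Both tables were selected by p and not by direction. Of these 461, 457 (99.1%) had the opposite direction on HFD, where 52.2% of all genes in the HFD table were higher in KO. The 233 lower on chow had a median log2 fold change of -0.76 on chow and 0.96 on HFD, and the 228 higher on chow had 0.72 and -0.74. Called in both comparisons were 277 genes, 276 of them in opposite directions (162 lower on chow and higher on HFD, 114 the reverse) and 1, the pseudogene Gm7514, in the same direction. Slfn8 and Dynlt1c, higher on both diets, and Loxl2, lower on both, were the others of like sign, and none of the 3 was called on both diets. The count of 276 was 142 without WT chow replicate 1, 109 without WT chow replicate 2 and 114 without KO chow replicate 1, and 143, 167 and 160 without WT HFD replicate 1, KO HFD replicate 1 and KO HFD replicate 2.

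Members of several groups described above took part. Peg10, lower in KO on chow, had 137, 136 and 166 normalized counts in WT HFD and 870, 331 and 227 in KO HFD, with every KO library above every WT library (log2 fold change 1.70, SE 0.47). Ccr2, higher in KO on chow, had 3103, 4567 and 4898 in WT HFD and 1041, 2473 and 2576 in KO HFD, again without overlap and in the other direction (log2 fold change -1.05, SE 0.35). Icam2 had 10200, 8339 and 11235 in WT HFD and 6305, 4092 and 4171 in KO HFD (log2 fold change -1.03, SE 0.21), although its groups overlapped on chow. Stox1 had 199, 144 and 106 in WT HFD and 69.4, 43.6 and 36 in KO HFD (log2 fold change -1.59, SE 0.35). Adamts4 was higher in KO HFD, with 20.5, 29.6 and 10.6 normalized counts in WT HFD and 195, 64.8 and 17.5 in KO HFD, where KO replicate 3 fell inside the WT range (log2 fold change 2.19, SE 0.82).

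By list, all 4 listed endothelial genes, 3 of 4 monocyte genes (Ccr2, F13a1 and Wfdc17), 8 of 12 glycosaminoglycan genes and 14 of 21 solute carriers were listed on HFD too, each in the opposite direction. The endothelial genes had a median of 1.01 on chow and -1.15 on HFD, and the solute carriers -0.60 and 0.92. Of the 23 interferon response genes 6 were shared, 5 opposite and Slfn8 in the same direction. Airway secretory genes shared 1 of 11 with the HFD table, mesothelial genes 1 of 5, and T cell, NK cell and fibroblast genes 0. Genes outside the shared 461 were not compared between the diets. Tet2 was listed in neither genotype comparison, so the authors' test gave it no unadjusted p under 0.05 on either diet. The genotype labels of the libraries were therefore not checked against values of the targeted transcript, and every direction given here rests on those labels.

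A test of the difference between the effects on the 2 diets, added after the directions were seen and fitted to the 461 genes of both contrasts, gave an unadjusted edgeR p under 0.05 for 457 genes and an adjusted p under 0.05 for 0 (lowest adjusted p = 0.248). The genes were selected by both contrasts, so the unadjusted count is a description.

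**Figure D5:**
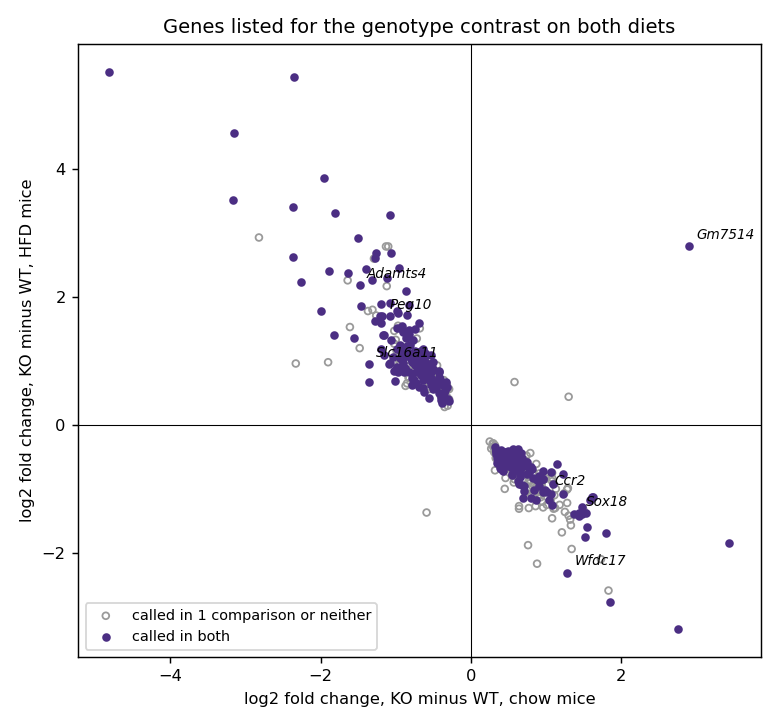
log2 fold change of KO against WT on HFD (vertical) and on chow (horizontal) for the 461 genes listed for both, one point per gene, from separate mice. Filled points were called in both comparisons, open points in 1 or neither, and 457 of the 461 lie in the quadrants of opposite sign. Points near 0 are missing on both axes because of how the tables were selected.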

How the data were processed

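RNA from CD31+ lung cells was sequenced from 3 mice per group, and the labels put each mouse in its genotype and diet group. Per the labels the authors isolated poly(A) RNA, and the submitters' processing notes name HISAT2, featureCounts, DESeq2 and the mm10 build, with versions and strand settings not given in the sources used here. The deposited tables give, per gene, raw read counts, a normalized signal (counts divided by size factors, the values printed here as normalized counts) and FPKM. The authors' p-values and adjusted p-values were read only to recover the number of genes adjusted over, and their fold changes were not used. Each table was restricted by the authors to genes with an unadjusted p-value under 0.05.

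Size factors and library totals (36.7 to 43.8 M reads on genes in the chow libraries) were recovered from the tables. Precision depends on both the spread between mice and, for genes with few reads, counting error. The listed counts were fitted with edgeR 4.0.16 (quasi-likelihood test, genotype only, R 4.3.3) using those size factors, and p-values were adjusted by Benjamini-Hochberg over 18463 genes. The scripts were tested on simulated data. Alternatives were DESeq2 1.42.0, TMM factors, library totals, a minimum mean of 10 normalized counts, a replicate block, a wider gene table, adjusted p and each library left out. Gene types came from GENCODE M21, in which 1297 of 1298 IDs were found, and promoters from RefSeq (GRCm38.p6).

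Genes were named as the 12 higher and 12 lower called protein-coding genes with the largest fold change, provided that the higher group averaged 50 normalized counts or more and that no libraries overlapped, and up to 4 per list by the same ranking, without the condition on overlap where fewer than 2 members met it. Other members were named from the lists, and those given with a value outside this rule (among them Scgb1a1, Eln, Lgr6, Nos3, Gja4, Gja5, Agtr1a, Il12b, Cd86 and Hyal2) were chosen after their values were seen. The comparison, its 22 cell type and 48 pathway lists and the naming rule were chosen with earlier results of these data known.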

Additional observations from a re-analysis of the deposited data

Results flagged for a closer look

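The effect of the knockout differed between the diets for 457 of the 461 genes listed for both, in that they were higher in KO on one diet and lower on the other. The difference of the log2 effects, HFD minus chow, passed an unadjusted edgeR p for the leading chow genes that follow, and none passed the adjusted one.

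Among genes lower in KO on chow, the difference was 2.88 for Fmod, 3.13 for Myo7b, 2.92 for Slc25a34 and 3.66 for Adamts4. Among genes higher in KO on chow, it was -3.13 for Stox1, -2.77 for A4galt, -3.59 for Wfdc17, -1.77 for Art2b, -1.81 for Ifit1bl1, -2.15 for Ip6k3 and -2.22 for Pcdh12. Some of these differences leaned on 1 HFD library. Myo7b had 22.7, 24.3 and 13.8 normalized counts in WT HFD and 135, 30.8 and 10.9 in KO HFD, and was not called there. Wfdc17 had 109, 160 and 1318 in WT HFD and 62.4, 104 and 154 in KO HFD. The HFD groups of both genes and of Adamts4 overlapped. The chow and HFD mice are separate animals, and the cause was not tested. Tet2 was listed in neither genotype comparison, so the genotype labels on either diet were not checked against it, and an exchange of genotypes on 1 diet would turn the sign of every direction given for that diet. Groups of 3 libraries were not screened for single deviating libraries.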

How the results depend on the processing

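The 994 genes called on chow became 0 with an adjusted p under 0.05, as did the 435 with a log2 fold change over 1 and, for KO against WT on HFD, the 1 gene called in the same direction and the 276 in the opposite direction. With a minimum mean of 10 normalized counts, 253 genes were called with a log2 fold change over 1, where fewer genes (1125) were fitted, and 0 in the same direction on HFD. With DESeq2, 4 genes were called in the same direction on HFD. Leaving out 1 library gave 483 to 806 genes called on chow, 295 to 474 with a log2 fold change over 1, 1 to 3 in the same direction and 109 to 278 in the opposite direction on HFD. The median log2 fold change of the Zfp zinc finger list was 0.31, and it ran from -0.05 (without KO chow replicate 1) to 0.34 (without KO chow replicate 2) with 1 library left out. Of the 117 named genes, 49 kept their call in each of the 6 fits without a chow library, and 0 changed sign under any alternative run. The naming rule required a call, and for most genes no overlap, in these same libraries. A change of sign was therefore unlikely from the start. The cause of these changes was not tested unless stated. With the replicate number as a block, 811 genes were called. Deviations of same-numbered libraries correlated at -0.03, 0.25 and -0.16, so the numbers gave no sign of pairing.

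Limits: the table holds only genes selected by p, so other genes, Tet2 and most endothelial markers in KO chow included, were not analysed here. There were 3 mice per group with 1 library each, at 36.7 to 43.8 M reads. The share of counting error in the spread was not tested, and it bears most on genes with few reads. By edgeR 0 genes passed the adjustment.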
